A study of Mus musculus with 24 samples.

Results

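Within the transcriptome of the newborn mouse lung, 40 genes of vesicle traffic were examined: the coats COPI and COPII, the Arf GTPases with their exchange factors, Golgi matrix and tethering proteins, and clathrin with its adaptors. They were taken from the 23420 genes of each table by gene symbol. No measured value entered that rule, but the genes were chosen with earlier results of these data known. The set holds 7 COPI genes (Copa, Copb1, Copb2, Cope, Copz1, Copz2, Arcn1), 10 COPII genes (Sec13, Sec31a, Sec23a, Sec23b, Sec24a, Sec24b, Sec24c, Sec24d, Sar1a, Sar1b) and 8 Arf genes (Arf1, Arf3, Arf4, Arf5, Arf6, Gbf1, Arfgef1, Arfgef2). A further 5 are Golgi genes (Golga2, Golgb1, Gorasp1, Gorasp2, Uso1) and 10 are clathrin genes (Clta, Cltb, Cltc, Ap1b1, Ap1g1, Ap1m1, Ap1s1, Ap2a1, Ap2b1, Ap2m1). The study asked how signalling through Wnt5a, Ror2 and Vangl2 shapes alveoli after birth. RNA of the left lobe was sequenced from 24 lungs in 8 groups of 3, at postnatal day (P) 2 and P5. The mutants were Sox9Cre/+; Vangl2f/f and Sox9Cre/+; Ror2f/f mice, in which Cre under Sox9 control removes Vangl2 or Ror2 from the distal lung epithelium and its descendants. Each mutant at each age had its own 3 control lungs, so the 4 comparisons (Vangl2 P2, Vangl2 P5, Ror2 P2 and Ror2 P5) share no lung. The controls were labelled wild type and titled Control(Vangl1/2) in the Vangl2 comparisons and Control(Ror2) in the Ror2 comparisons. No allele of the controls is given, and the mutant titles do not name Vangl1, so its state in these lungs is not known.

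Proteins made in the endoplasmic reticulum (ER) leave it in vesicles coated with COPII, whose inner layer (Sar1, Sec23, Sec24) selects cargo and whose outer layer (Sec13, Sec31) forms the cage. COPI, recruited to Golgi membranes by Arf GTPases that an exchange factor has loaded with GTP, carries proteins back to the ER, while clathrin buds from the trans-Golgi with the AP1 adaptor and from the plasma membrane with AP2. In the newborn lung this route carries surfactant proteins of alveolar type II cells, collagen and elastin of fibroblasts, and membrane proteins such as Vangl2 itself.

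Values are normalized counts, that is, the reads on a gene after each lung was scaled for its depth within its table of 6. In 23 lungs between 16178031 and 21546673 reads fell on genes. Control 1 of Ror2 P5 had 13823693 and lacked reads on most of chromosomes 5 to 9 and X, so it was set to missing there, and 13 members had 2 controls in that table (Copb1, Copb2, Cope, Arcn1, Sec13, Sec31a, Arf5, Gorasp1, Uso1, Ap1g1, Ap1m1, Ap1s1 and Ap2a1). As a check of the labels, Vangl2 mRNA read 369, 314 and 292 against 170, 148 and 166 in Vangl2 P5 (control lungs against mutant lungs, limma adjusted p = 0.0604) and 249, 302 and 281 against 241, 224 and 173 in Vangl2 P2. Ror2 mRNA overlapped between the genotypes, at 451, 581 and 520 against 479, 349 and 366 in Ror2 P2 and 526, 368 and 597 against 362, 440 and 521 in Ror2 P5, and whole lobes also hold the transcripts of cells that Sox9Cre does not reach. The genotype entries of the Vangl2 P5 and Ror2 P2 mutants name the other gene, and the titles were followed. In Vangl2 P5 Ror2 mRNA read 611, 478 and 487 against 541, 351 and 273, with overlap (log2 fold change −0.48, SE 0.25). Vangl2 mRNA overlapped in Ror2 P2 (−0.21, SE 0.14) and Ror2 P5 (−0.28, SE 0.22). Ror2 itself gave −0.38 (SE 0.16) and −0.16 (SE 0.20) there, so mRNA did not settle the titles of the Ror2 comparisons. Lung markers were present, with alveolar type II genes such as Sftpc above 0 wherever measured, and in such bulk RNA fewer cells of a type and less RNA per cell cannot be told apart.

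None of the 40 genes passed the main test, which was unpaired, in any of the 4 comparisons, while most lay slightly below the controls. In Vangl2 P5 same-numbered lungs deviated together. With a replicate block Sec23a and Gbf1 passed there (limma adjusted p = 0.0361 and 0.0449), beside 1558 of all 17410 genes. All 40 were tested in each comparison. At an adjusted p under 0.05 limma called 0 members in Vangl2 P2, Vangl2 P5, Ror2 P2 and Ror2 P5, where it called 3.59%, 0.563%, 0% and 0.128% of all genes tested (626 of 17448, 98 of 17410, 0 of 17541 and 22 of 17179). The edgeR quasi-likelihood test on recovered reads also called 0 members in each. An unadjusted p under 0.05 was reached by 8, 3, 9 and 5 members in limma, and by the same numbers in edgeR, beside 22.5%, 18.8%, 19.3% and 18.4% of all genes in limma.

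The signs were less even than the p-values. Mutants lay below controls for 24, 33, 28 and 32 of the 40 genes, against 49.9%, 49.7%, 50.6% and 49.4% of all genes tested. The median log2 fold change (mutant over control) of the 40 was −0.05, −0.15, −0.09 and −0.09 in Vangl2 P2, Vangl2 P5, Ror2 P2 and Ror2 P5, and that of all genes 0.00, 0.00, −0.01 and 0.00. Over the 4 comparisons 22 genes were lower each time and 3 were higher each time (Arfgef1, Arfgef2 and Sec24a). The share of all genes that kept 1 sign in all 4 was not counted. Between the mutants at an age, or the ages of a mutant, 65.2% to 71.9% of all genes shared a sign. The mutant lungs lay entirely below the controls for 8, 9, 13 and 11 of the 40 genes, beside 14.9%, 12.5%, 12.2% and 14.3% of all genes. They lay entirely above for 4, 1, 6 and 0, beside 14.6%, 13.2%, 13.4% and 15.6%. The 95% interval of a member's log2 fold change reached a median of 0.26, 0.33, 0.19 and 0.19 to either side. An exact two-sided permutation test of so few lungs cannot go below p = 0.1.

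**Figure D1:**
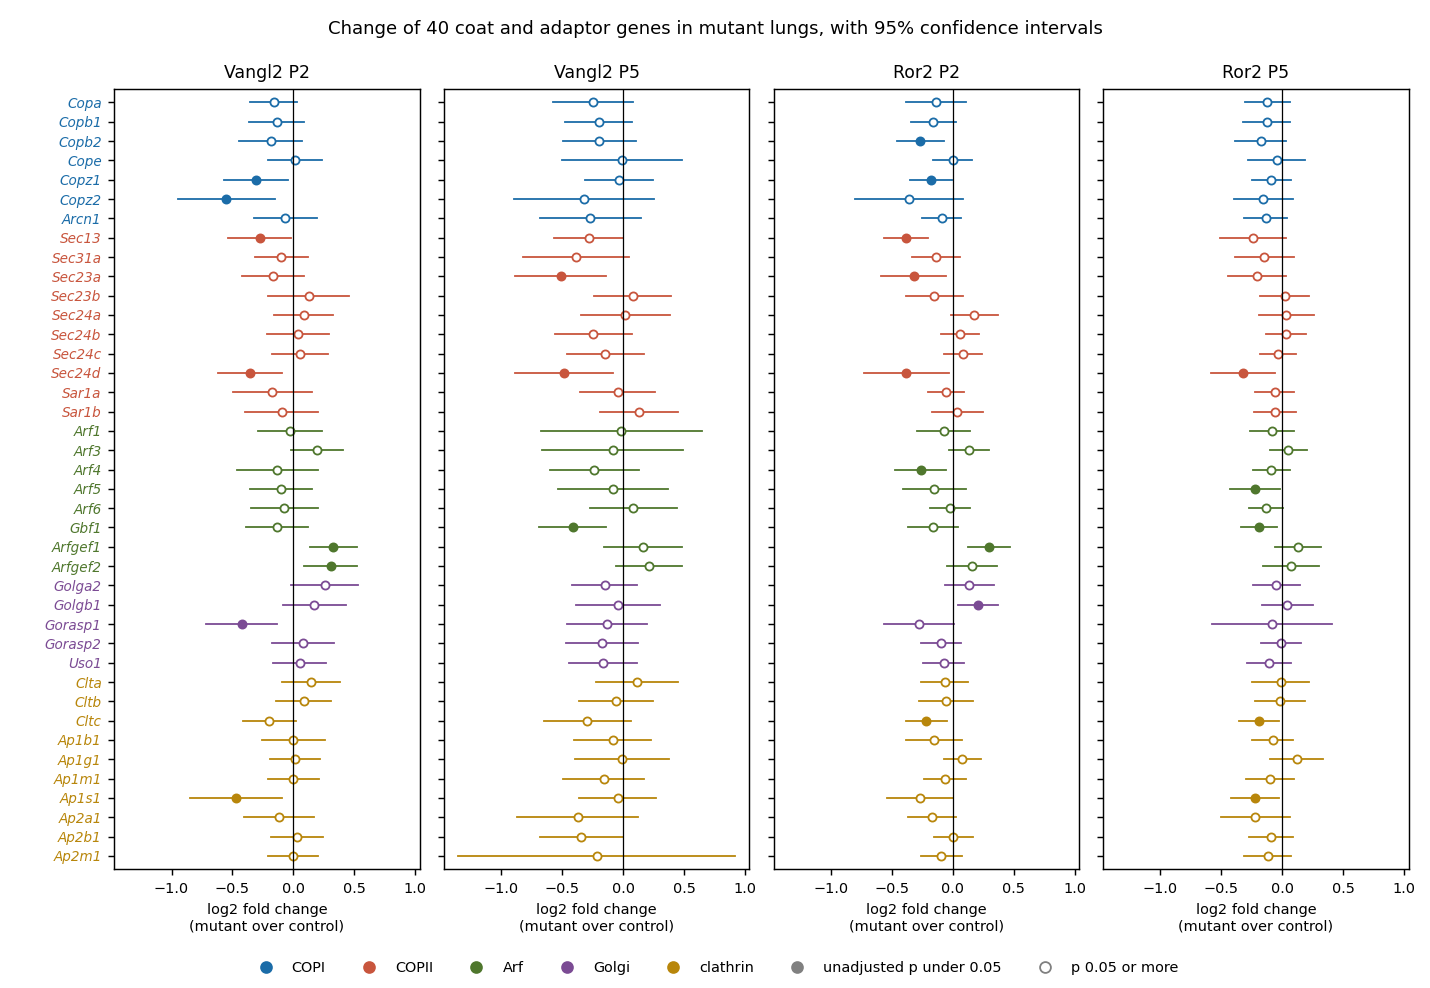
Log2 fold change (mutant over control, horizontal axis) of each of the 40 genes in the 4 comparisons, with 95% intervals, coloured by group; filled points have an unadjusted p under 0.05. Most points lie left of 0, and the intervals of 8, 3, 9 and 5 genes leave out 0.

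Promoters were searched for shared motifs because several members lay below the controls together, and this search was made after their values were seen. RefSeq promoters (GRCm38.p6, from 250 bases before to 50 after a gene's start) were found for 35 of the 40 genes, and not for Arcn1, Golgb1, Arfgef1, Ap1m1 and Arf6. The letters TGACGTGG (CCACGTCA on the other strand), known as the core of the unfolded protein response element, occurred in 6 of the 35 (17.1%) and in 193 of all 27025 genes with a promoter (0.71%). That background holds many genes not tested in these lungs and was not matched for expression or base composition. Of genes tested in Vangl2 P2, 131 carried the letters and 12446 with a promoter did not. The 6 matches are shown 5′ to 3′ on each gene's strand, with the matching letters in capitals, for Copb1 (chr7:114254690-114254719, minus strand), Copb2 (chr9:98563713-98563742, plus strand), Sec23a (chr12:59011993-59012022, minus strand), Sec24d (chr3:123267459-123267488, plus strand), Arf1 (chr11:59228228-59228257, minus strand) and Gbf1 (chr19:46152535-46152564, plus strand).
Copb1: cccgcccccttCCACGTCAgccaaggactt
Copb2: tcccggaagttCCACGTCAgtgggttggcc
Sec23a: ctcctccccttTGACGTGGcagaggcggca
Sec24d: gcccgggcgccTGACGTGGcactagcaacc
Arf1: gcggcaggcgcTGACGTGGctgccgtcagc
Gbf1: gaggctagttaCCACGTCAgtgagctgaca

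Counted from the gene's start, the first base of the match lay at −28 in Copb1, −7 in Copb2, 6 in Sec23a, −26 in Sec24d and −12 in Gbf1. For Arf1 it lay at 21 from one RefSeq start and −84 from another. Whole promoters follow for the 3 of these genes that were among the largest changes or lowest p-values of the members in a comparison. Copz2, Sec13, Arf5, Gorasp1 and Ap1s1 ranked so as well and had no match, and Arfgef1 had no promoter to search. The 3 are Sec23a (chr12:59011968-59012267, minus strand), Sec24d (chr3:123267246-123267545, plus strand) and Gbf1 (chr19:46152308-46152607, plus strand), again with the match in capitals.
Sec23a: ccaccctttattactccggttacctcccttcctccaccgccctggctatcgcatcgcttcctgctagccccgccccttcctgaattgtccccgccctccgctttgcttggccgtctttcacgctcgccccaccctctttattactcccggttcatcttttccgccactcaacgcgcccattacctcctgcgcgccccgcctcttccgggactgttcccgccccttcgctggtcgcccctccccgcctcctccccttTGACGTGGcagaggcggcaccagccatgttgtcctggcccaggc
Sec24d: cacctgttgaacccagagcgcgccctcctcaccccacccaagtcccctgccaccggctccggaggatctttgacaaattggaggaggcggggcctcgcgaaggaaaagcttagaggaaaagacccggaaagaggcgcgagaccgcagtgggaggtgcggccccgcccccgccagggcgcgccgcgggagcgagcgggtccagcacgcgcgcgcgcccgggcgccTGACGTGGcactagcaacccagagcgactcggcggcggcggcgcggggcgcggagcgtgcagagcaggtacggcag
Gbf1: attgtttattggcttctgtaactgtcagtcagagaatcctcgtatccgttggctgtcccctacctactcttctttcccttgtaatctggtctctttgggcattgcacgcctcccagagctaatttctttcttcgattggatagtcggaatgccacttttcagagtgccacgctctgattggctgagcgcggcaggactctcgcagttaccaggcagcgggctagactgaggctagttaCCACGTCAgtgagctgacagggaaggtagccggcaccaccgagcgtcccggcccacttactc

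Both strands were searched for 9 motifs in all. TGACGT and ACGTGG, both contained in TGACGTGG, occurred in 45.7% and 51.4% of the 35 promoters (8.4% and 9.4% of all), and CACGTG, which can overlap ACGTGG, in 17.1% (8.1% of all). CCGGAAG was in 34.3% (9.9% of all), GGGCGG in 80% (38.2%), the palindrome of GCGCA followed by TGCGC in 2.9% (1.07%) and CCAAT in 37.1% (41.1%). The ER stress response element, in which 9 bases part CCAAT from CCACG, was in 0 of the 35 (0.14% of all). The 6 genes with TGACGTGG were lower in the mutants in all 4 comparisons, with median log2 fold changes of −0.15, −0.31, −0.22 and −0.18. The other 29 members with a promoter had medians of 0.00, −0.13, −0.09 and −0.08, and 15, 24, 19 and 23 of them were lower. Among all tested genes that carry TGACGTGG, 51.9%, 53.3%, 47.8% and 55.0% were lower, with medians of −0.01, −0.03, 0.02 and −0.03. A match is a description of sequence and not a measured binding site.

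Of the COPI genes, 6 of 7 were lower in the mutants of all 4 comparisons, and 0 passed the test in any. The share of all genes lower in all 4 was not counted. The group's median log2 fold change was −0.16, −0.20, −0.16 and −0.13 in Vangl2 P2, Vangl2 P5, Ror2 P2 and Ror2 P5. Copz2 (chr11:96849870-96861203, plus strand), the less common form of the small zeta subunit, gave the largest difference of the 40 genes in Vangl2 P2. Its controls read 1402, 1278 and 1238 and its mutants 716, 848 and 1162. No mutant lung reached a control, and mutant 3 came nearest. The log2 fold change was −0.55 (SE 0.17, limma adjusted p = 0.121), with a 95% interval of −0.95 to −0.15. In Vangl2 P5 Copz2 read 1152, 764 and 1003 against 1101, 684 and 606, in Ror2 P2 1255, 1125 and 927 against 881, 1064 and 660 and in Ror2 P5 1211, 1107 and 987 against 898, 973 and 1094. The genotypes overlapped in these 3 tables, with log2 fold changes of −0.32 (SE 0.25), −0.36 (SE 0.19) and −0.16 (SE 0.10).

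The common zeta form Copz1 was separated at P2 in both mutants, at 3152, 3154 and 3000 against 2158, 2627 and 2787 in Vangl2 and 2981, 2898 and 2980 against 2595, 2797 and 2448 in Ror2. Its log2 fold changes were −0.31, −0.03, −0.18 and −0.09 in the order above. Copb2, the beta-prime subunit, whose promoter carries TGACGTGG, lay below every control in Vangl2 P5 and both Ror2 tables. In Ror2 P2 its controls read 3859, 3699 and 3728 and its mutants 3122, 3409 and 2869, a log2 fold change of −0.27 (SE 0.08, limma adjusted p = 0.206). Copb1 (beta) was separated below in Vangl2 P5, Ror2 P2 and Ror2 P5, Copa (alpha) in Vangl2 P2 and P5, and Arcn1 (delta) in Ror2 P2 and P5, with log2 fold changes between −0.27 and −0.07 for the 3 genes. In Ror2 P5 Copb2, Copb1 and Arcn1 had 2 controls, and separation from 2 lungs is easier to reach than from 3. Cope (epsilon) was the exception, at 0.01, −0.01, 0.00 and −0.05. Its 95% intervals were −0.21 to 0.23 in Vangl2 P2 and −0.16 to 0.16 in Ror2 P2, but as wide as −0.50 to 0.49 in Vangl2 P5.

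The COPII genes were divided, with 0 of 10 past the main test and medians of −0.10, −0.19, −0.10 and −0.06. Sec13, Sec31a, Sec23a, Sec24d and Sar1a were lower in all 4 comparisons, Sec24a was higher in all 4, and Sec23b, Sec24b, Sec24c and Sar1b varied in sign. Sec24d (chr3:123267455-123365641, plus strand), a cargo-binding subunit needed for collagen export in zebrafish cartilage, differed by a similar amount each time. It read 2142, 2280 and 2210 against 1582, 1616 and 2014 in Vangl2 P2 and 2343, 1958 and 2283 against 1973, 1500 and 1300 in Vangl2 P5. It read 2059, 2171 and 1912 against 1618, 1904 and 1255 in Ror2 P2 and 2185, 2388 and 2389 against 1553, 1937 and 2117 in Ror2 P5. The genotypes were separated in all tables but Vangl2 P5, where mutant 1 lay just above control 2. The log2 fold changes were −0.36 (SE 0.11), −0.48 (SE 0.18), −0.38 (SE 0.15) and −0.32 (SE 0.11), with limma adjusted p = 0.124, 0.203, 0.239 and 0.211.

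Sec23a (chr12:58958383-59012017, minus strand), the part of the inner coat that activates the Sar1 GTPase, gave the largest difference of the 40 genes in Vangl2 P5. Its controls read 1697, 2004 and 1704 and its mutants 1304, 1480 and 1037, without overlap, a log2 fold change of −0.51 (SE 0.16, limma adjusted p = 0.159). In Ror2 P2 it read 1683, 1592 and 1629 against 1369, 1480 and 1108, again without overlap, at −0.32 (SE 0.11, limma adjusted p = 0.219). In Vangl2 P2 (1588, 1667 and 1665 against 1272, 1507 and 1617) and Ror2 P5 (1944, 1887 and 1769 against 1421, 1588 and 1857) mutant 3 reached the controls, and the log2 fold changes were −0.17 (SE 0.11) and −0.21 (SE 0.10).

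Sec13 (chr6:113728062-113740743, minus strand), a subunit shared by the COPII cage and the nuclear pore, stood farthest from its controls in Ror2 P2. The controls read 1795, 1667 and 1714 and the mutants 1353, 1382 and 1240, so both groups were narrow and well apart, at −0.38 (SE 0.08, limma adjusted p = 0.203) on the log2 scale. It was also separated in Vangl2 P2, at 1774, 1737 and 1768 against 1305, 1391 and 1686, and in Vangl2 P5, at 1862, 1853 and 2001 against 1566, 1703 and 1439, with log2 fold changes of −0.28 (SE 0.11) and −0.28 (SE 0.12). With 2 controls in Ror2 P5 it read 1926 and 1772 against 1409, 1527 and 1785, where mutant 3 lay among the controls, at −0.24 (SE 0.11).

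The Arf GTPases lay near the controls in most tables, and their exchange factors lay on opposite sides. The group's medians were −0.05, −0.05, −0.05 and −0.09, and 0 of 8 genes passed the main test. Gbf1 (chr19:46152509-46286510, plus strand), the exchange factor of the cis-Golgi that loads Arf for COPI, was lower in all 4 comparisons. In Vangl2 P5 its controls read 2498, 2650 and 2521 and its mutants 1920, 2068 and 1778. The groups did not overlap and the spread within each was small. The log2 fold change was −0.41 (SE 0.12, limma adjusted p = 0.138). In Ror2 P5 it read 2171, 2059 and 2154 against 1770, 1915 and 1907, also separated, at −0.19 (SE 0.06, limma adjusted p = 0.191). At P2 the genotypes overlapped, at 2465, 2399 and 2111 against 2379, 2013 and 1981 in Vangl2 and 2285, 2156 and 2073 against 1933, 2113 and 1782 in Ror2, with log2 fold changes of −0.13 (SE 0.11) and −0.16 (SE 0.09).

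Arfgef1 (chr1:10137571-10232670, minus strand) encodes BIG1, an exchange factor of the trans-Golgi that loads Arf for AP1, and was higher in all 4 comparisons. In Vangl2 P2 it read 2751, 2891 and 2847 against 3549, 3723 and 3392 and in Ror2 P2 2342, 2353 and 2332 against 2941, 2672 and 3028. Both times the mutants stood clear of controls that differed little. The log2 fold changes were 0.33 (SE 0.08, limma adjusted p = 0.0744) and 0.30 (SE 0.07, limma adjusted p = 0.203). At P5 the genotypes overlapped, at 2326, 2887 and 2378 against 2584, 2969 and 2941 in Vangl2 and 2167, 2037 and 2150 against 2506, 2383 and 2075 in Ror2, with 0.17 (SE 0.14) and 0.13 (SE 0.08). Its close relative Arfgef2 (BIG2) lay above every control in both Vangl2 tables, at 1787, 1864 and 1861 against 2451, 2306 and 2069 in P2 (0.31, SE 0.09) and 1634, 1486 and 1445 against 1820, 1758 and 1703 in P5 (0.21, SE 0.12).

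Among the GTPases, Arf5 (chr6:28423560-28426602, plus strand) was separated in Ror2 P5, where the 2 controls read 2080 and 2019 and the mutants 1631, 1748 and 1889. The log2 fold change was −0.23 (SE 0.09, limma adjusted p = 0.239). Elsewhere it overlapped, at 1902, 1990 and 2148 against 1871, 1676 and 2104 in Vangl2 P2, 2148, 1757 and 1856 against 1484, 2421 and 1645 in Vangl2 P5 and 1982, 1646 and 2084 against 1695, 1854 and 1578 in Ror2 P2. Arf4, which acts beside Arf1 at the Golgi, was separated below in Ror2 P2, at 5200, 4829 and 5146 against 4334, 4558 and 3789 (−0.26, SE 0.09). Arf6, the Arf of the plasma membrane, lay below all controls in Ror2 P5 (−0.13, SE 0.06). Arf3 lay above all controls at P2 in both mutants (0.19, SE 0.09, and 0.14, SE 0.07), and Arf1, the main Arf of COPI recruitment, gave −0.03, −0.01, −0.07 and −0.08 with overlap throughout.

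Of the 5 Golgi matrix and tether genes, Gorasp1 alone was lower in all 4 comparisons. The group's medians were 0.08, −0.15, −0.07 and −0.05, and 0 of 5 passed the test. Gorasp1 (chr9:119925257-119937565, minus strand) encodes GRASP65, which links Golgi cisternae. In Vangl2 P2 it read 488, 531 and 433 against 346, 358 and 373, without overlap, at −0.43 (SE 0.13, limma adjusted p = 0.107). In Ror2 P2 it read 479, 485 and 455 against 418, 426 and 334, also separated, at −0.28 (SE 0.12, limma adjusted p = 0.272). In Vangl2 P5 (376, 389 and 404 against 356, 376 and 335) and Ror2 P5 (401 and 359 against 285, 346 and 465) the lungs overlapped, at −0.13 (SE 0.14) and −0.08 (SE 0.21). Golgb1, the giantin tether, lay above every control in Ror2 P2, at 2163, 2163 and 2021 against 2366, 2425 and 2539 (0.21, SE 0.07). Golga2 (GM130), the partner of GRASP65, lay above every control in Vangl2 P2 (0.26, SE 0.12) and below every control in Vangl2 P5 (−0.15, SE 0.12). Gorasp2 (GRASP55) gave 0.08, −0.17, −0.10 and −0.01 and Uso1 (p115) 0.05, −0.16, −0.07 and −0.11, and Uso1 was separated below in Ror2 P5 (2 controls).

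Among clathrin and its adaptors, the heavy chain Cltc was below every control in all 4 comparisons, the one gene of the 40 with this pattern. The share of all genes with this pattern was not counted. In each comparison alone, 14.9%, 12.5%, 12.2% and 14.3% of all genes lay below every control. Cltc read 9430, 9199 and 9427 against 7870, 7857 and 8778 in Vangl2 P2 and 9132, 8910 and 8851 against 7928, 7884 and 6281 in Vangl2 P5. It read 8598, 8846 and 8761 against 7198, 7870 and 7516 in Ror2 P2 and 9036, 8985 and 9691 against 7856, 7893 and 8463 in Ror2 P5. The log2 fold changes were −0.20 (SE 0.09), −0.29 (SE 0.16), −0.22 (SE 0.07) and −0.19 (SE 0.07), with limma adjusted p = 0.256, 0.357, 0.213 and 0.219. The light chains Clta (0.15, 0.11, −0.07 and −0.02) and Cltb (0.09, −0.06, −0.05 and −0.02) overlapped in every table. The clathrin group's medians were 0.00, −0.12, −0.08 and −0.10, and 0 of 10 passed the test.

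Ap1s1 (chr5:137034993-137046135, minus strand), the small sigma subunit of AP1, read 1744, 1719 and 1756 against 972, 1308 and 1552 in Vangl2 P2. The controls were nearly equal and the mutants spread widely below them, at a log2 fold change of −0.47 (SE 0.16, limma adjusted p = 0.148). It was separated below in both Ror2 tables, at 1453, 1465 and 1498 against 1303, 1366 and 1027 in P2 (−0.27, SE 0.11) and 1597 and 1546 against 1264, 1347 and 1428 in P5 (−0.22, SE 0.08). In Vangl2 P5 it overlapped, at 1414, 1429 and 1482 against 1337, 1626 and 1255 (−0.04, SE 0.14). The large AP1 subunits Ap1b1 and Ap1g1 gave 0.00, −0.09, −0.15 and −0.08 and 0.01, −0.01, 0.08 and 0.12, and the mu subunit Ap1m1 0.00, −0.16, −0.07 and −0.10. Of the large AP2 subunits, Ap2a1 (−0.12, −0.37, −0.17 and −0.22) was separated below in both Ror2 tables, with 2 controls in Ror2 P5, and Ap2b1 (0.03, −0.34, 0.00 and −0.09) in Vangl2 P5.

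**Figure D2:**
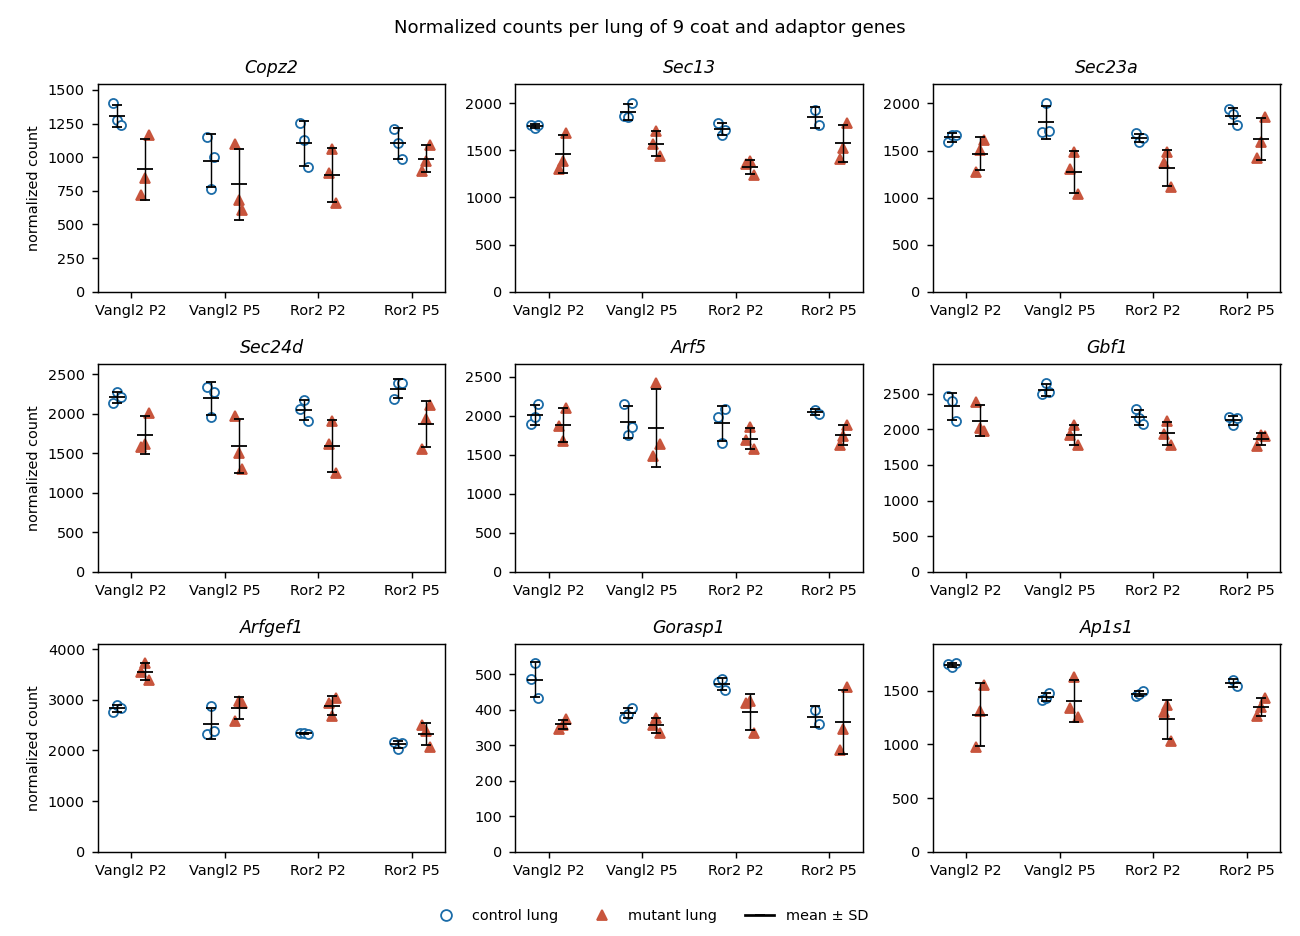
Normalized count (vertical axis, from 0) of 9 of the genes described, in each control lung (circles) and mutant lung (triangles) of the 4 comparisons, with mean ± SD. Arfgef1 is higher in the mutants at P2 and the other 8 are lower wherever the genotypes are separated.

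Set beside each other, COPI had the lowest median of the 5 groups in every comparison, COPII the next lowest in all but Ror2 P5, and Arf the one nearest 0 in Vangl2 P5 and Ror2 P2. Averaged over its genes on the log2 scale and set to the control mean, COPI stood at −0.33, −0.24 and −0.03 in the Vangl2 P2 mutants and −0.20, −0.05 and −0.27 in the Ror2 P2 mutants. All lay below the controls, which ran from −0.03 to 0.03 and from −0.04 to 0.05, though mutant 3 of Vangl2 P2 only just. In Vangl2 P5 (−0.02, −0.21 and −0.32) and Ror2 P5 (−0.19, −0.15 and −0.03, over the 3 genes with every lung) they overlapped controls of −0.09 to 0.10 and −0.11 to 0.10. COPII means were separated below in Vangl2 P5, Ror2 P2 and Ror2 P5, clathrin means in both P2 tables and Golgi means in Vangl2 P5, while Arf means overlapped in all 4. Of these, COPII in Ror2 P5 only just cleared the controls (mutant 3 −0.0066, control 2 −0.0042, over 8 genes). Clathrin in Vangl2 P2 was also close (mutant 3 −0.020, control 2 −0.012). Whichever single lung was dropped, the COPI and COPII medians stayed negative. The Arf median turned positive in Vangl2 P2 without mutant 1 (0.03) and in Vangl2 P5 without control 1, mutant 1 or mutant 3 (0.05, 0.06 and 0.05). The clathrin median of Vangl2 P2 turned positive without control 2, mutant 2 or mutant 3 (0.01, 0.04 and 0.01), and the Golgi median of Ror2 P5 without mutant 1 (0.00).

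**Figure D3:**
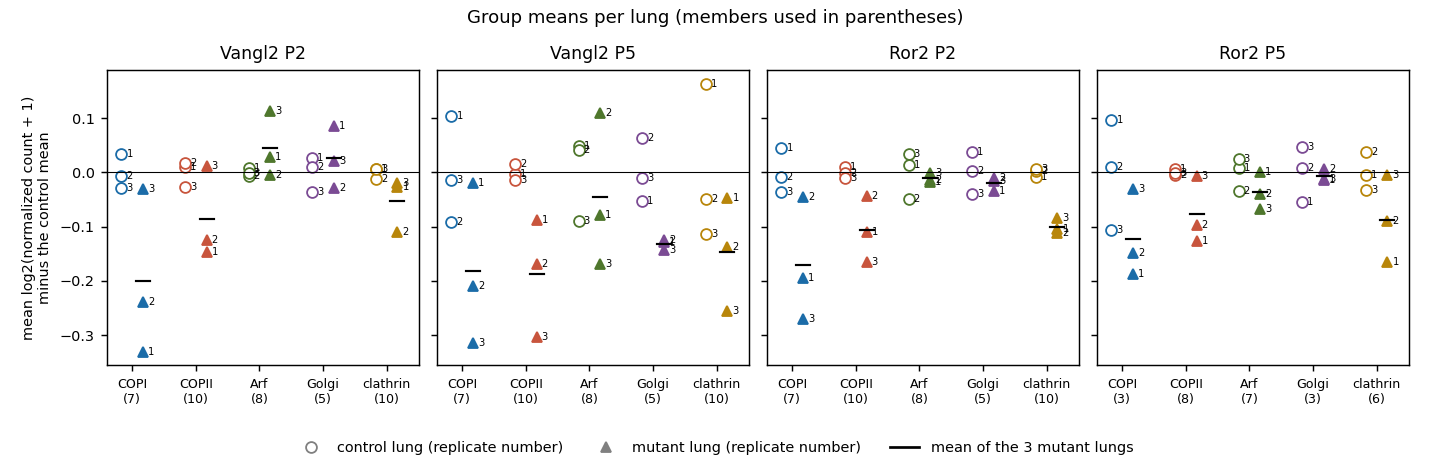
Mean of log2(normalized count + 1) over the genes of each group (number in parentheses) in each lung, minus the mean of the controls of the same table (vertical axis). Numbers mark the lungs and lines the mean of the 3 mutants, which is lowest for COPI in Vangl2 P2 (−0.20), Ror2 P2 (−0.17) and Ror2 P5 (−0.12) and for COPII in Vangl2 P5 (−0.19).

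Ratios of related genes within a lung do not depend on the size factor. The log2 ratio of Sec24d to Sec24c was −0.33, −0.25 and −0.24 against −0.97, −0.74 and −0.34 in Vangl2 P2 and −0.37, −0.26 and −0.44 against −0.84, −0.52 and −1.10 in Ror2 P2 (controls against mutants), without overlap. The mean difference was −0.41 and −0.47, and −0.34 and −0.29 in Vangl2 P5 and Ror2 P5, where lungs overlapped. The ratio of Gorasp2 to Gorasp1 was higher in the mutants by 0.50 in Vangl2 P2, without overlap. In Ror2 P2 it was higher by 0.18, at 2.790, 2.749 and 2.805 against 2.807, 2.808 and 3.264, where mutants 1 and 2 only just cleared the controls. It differed by −0.04 in Vangl2 P5 and 0.07 in Ror2 P5, with overlap. The ratio of Sec23b to Sec23a was higher by 0.23 in Ror2 P5 without overlap and by 0.59 in Vangl2 P5 with overlap, and that of Arf3 to Arf1 by 0.21 in Ror2 P2 without overlap. Copz2 to Copz1 differed by −0.24, −0.29, −0.18 and −0.07, with overlap each time.

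The log2 fold changes of the 40 genes were alike in order between the mutants. Vangl2 and Ror2 gave a Pearson's r of 0.83 at P2 (Spearman's rho 0.84) and 0.68 at P5 (rho 0.67), where all genes tested gave r of 0.49 and 0.54. The sign was shared by 34 and 33 of the 40 genes, and by 70.7% and 71.9% of all genes. Between the ages r was 0.48 in Vangl2 and 0.82 in Ror2, with a shared sign for 27 and 34 genes, where all genes gave r of 0.49 and 0.28 and a shared sign for 65.5% and 65.2%. Genes are not independent replicates, and the members of one comparison come from the same lungs, so these values are a description. The 40 also had smaller median SEs than all genes, so the 2 sets of r are not like for like. These were 0.11, 0.14, 0.08 and 0.08 for the 40, beside 0.19, 0.23, 0.17 and 0.15, in Vangl2 P2, Vangl2 P5, Ror2 P2 and Ror2 P5. In tests of the difference itself limma called 0 of 40 members for Ror2 minus Vangl2 at P2, Ror2 minus Vangl2 at P5, P5 minus P2 in Vangl2 and P5 minus P2 in Ror2, beside 0%, 0.0118%, 0% and 0% of all genes. At an unadjusted p under 0.05 there were 0, 0, 1 (Golga2) and 0 members, beside 4.6%, 4.73%, 8.45% and 9.51% of all genes, and a missed threshold does not show that the mutants were alike.

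**Figure D4:**
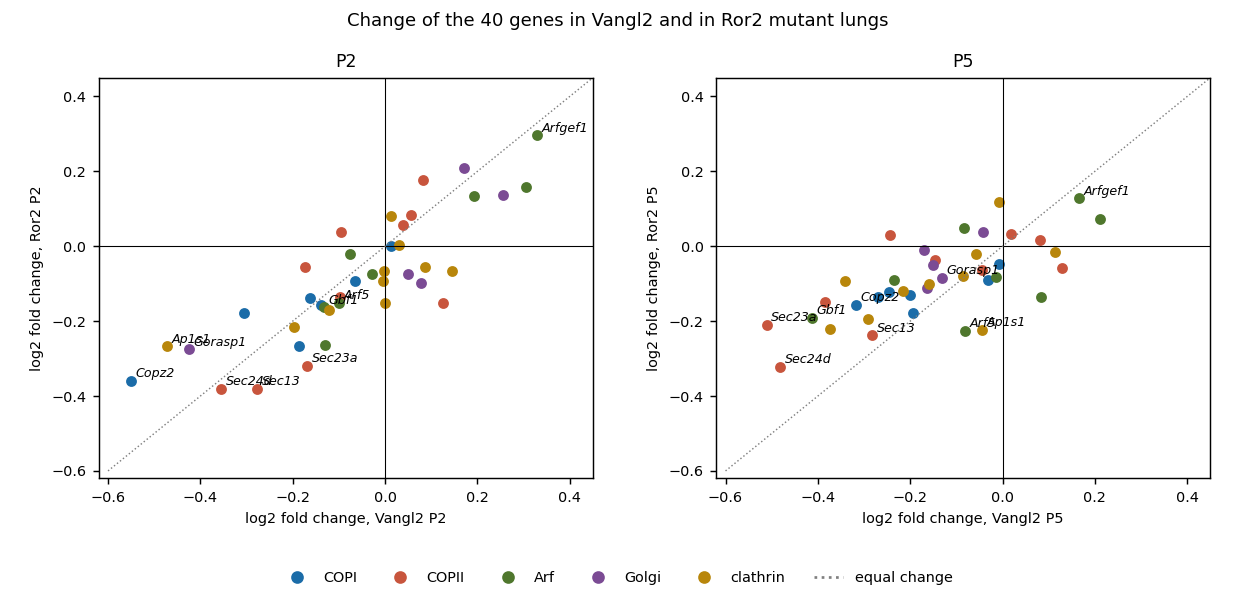
Log2 fold change in Ror2 mutants (vertical axis) against that in Vangl2 mutants (horizontal axis) for the 40 genes at P2 and P5, with the line of equal change dotted. At P2 (r = 0.83) Copz2, Sec24d and Sec13 lie at the lower left and Arfgef1 at the upper right, and points scatter more at P5 (r = 0.68).

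In Vangl2 P5 lungs with the same number deviated together, and a fit with that number as a replicate block changed calls. Of the 40 genes 2 then passed, both lower: Sec23a at −0.51 (SE 0.11, limma adjusted p = 0.0361) and Gbf1 at −0.41 (SE 0.10, limma adjusted p = 0.0449). Among all 17410 genes tested the calls went from 98 to 1558, so the rise was not particular to the 40 members. The lungs numbered 1 stood apart in both genotypes, as Ap2m1, the mu subunit of AP2, shows with 3530, 1228 and 1146 against 2710, 1114 and 1049. Its log2 fold change was −0.22 with a 95% interval of −1.35 to 0.92. In all, 5 members were over 1.25 times the mean of the other lungs of their genotype in both (Ap2m1, Arf1, Ap2a1, Cope and Copz2), and 0 were under 0.8 times. When both were dropped, a setting added after the data had been seen, limma called 0 members and 4 of 17045 genes, and 4 members had an unadjusted p under 0.05.

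Single lungs also decided calls. Without mutant 3 of Vangl2 P2, 6 of the 40 members passed in limma, beside 2333 of all 17146 genes tested. Copz2 (−0.74), Ap1s1 (−0.63), Sec24d (−0.47) and Sec13 (−0.38) were lower, and Arfgef1 (0.36) and Arfgef2 (0.37) higher. Their adjusted p-values ran from 0.0128 to 0.0336. Without mutant 2 of Ror2 P2, 2 of the 40 members passed, Sec13 (−0.41) and Arfgef1 (0.35), both at limma adjusted p = 0.0482. Beside them 859 of all 17409 genes tested were called, so calls rose over all genes in both settings.

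Mutant 3 of Vangl2 P2 and mutant 2 of Ror2 P2 were also the mutants nearest the controls in their COPI mean. Among mutants, the lung nearest the controls had the highest fibroblast markers, while control lungs did not always follow that order. The summed level of 6 matrix fibroblast genes (Col1a1, Col1a2, Col3a1, Dcn, Lum and Mfap4) was 174587 to 190987 in controls and 113715 to 137068 in mutants of Vangl2 P2, and 229186 to 260801 in controls and 101436 to 165237 in mutants of Vangl2 P5. In Ror2 P2 it was 178811 to 194482 in controls and 97274 to 162789 in mutants, and in Ror2 P5, over 5 of the 6 genes, 179113 to 205967 in controls and 127569 to 185779 in mutants. It was below all controls in every mutant lung of the first 3 tables and overlapped in the last. The abundant Col1a1, Col1a2, Col3a1 and Mfap4 carry this sum and were lower in all 4 tables, while Dcn (0.34, 0.79, −0.91 and 0.54) and Lum (0.01, 0.86, −1.81 and 0.55) were lower in Ror2 P2 and higher in the other 3. The mutant whose COPI mean lay nearest the controls (mutant 3 in Vangl2 P2, 1 in Vangl2 P5, 2 in Ror2 P2 and 3 in Ror2 P5) had the highest matrix fibroblast sum of its 3 mutants in 4 of 4 tables. The same held in 4 of 4 for myofibroblast and smooth muscle genes (Acta2, Tagln, Myh11, Cnn1 and Des), in 3 of 4 for proliferation genes (Mki67, Top2a and Ccnb1), in 2 of 4 for alveolar type II and erythroid genes, in 1 of 4 for endothelial, macrophage, neutrophil and lymphocyte genes and in 0 of 4 for club, ciliated and alveolar type I genes. For any list 1 of the 3 mutants ranks highest. In Ror2 P5 the COPI mean held 3 of 7 genes. Sums there held 3 of 5 myofibroblast, 2 of 3 proliferation, 4 of 6 type II and 2 of 3 club genes. Among controls, control 1 had the highest COPI mean and the lowest matrix fibroblast sum in Vangl2 P2 (0.03 and 174587) and Ror2 P5 (0.10 and 179113). In Vangl2 P5 and Ror2 P2 the control with the lowest COPI mean also had the lowest sum (−0.09 and 229186, −0.04 and 178811). The part of fibroblasts and of the other cell types in the COPI values was not tested.

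**Figure D5:**
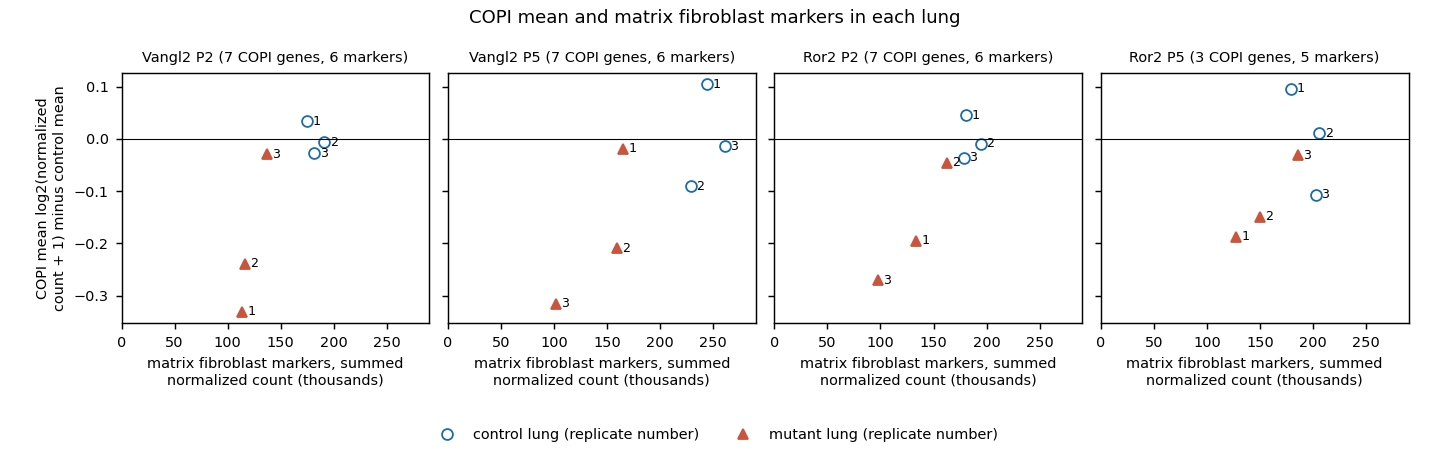
Mean COPI level of each lung relative to its controls (log2, vertical axis) against its summed normalized count of matrix fibroblast genes (horizontal axis, scaled as its label says), with lungs numbered. In each table the mutant lung with the most fibroblast transcript is the one whose COPI mean lies nearest 0.

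Markers of other cells differed by genotype as well, and the sums below are those of whole lists, in which a few abundant genes weigh most. The 3 club cell genes summed above all controls in both Vangl2 tables and in Ror2 P5, with 122769 to 152794 in controls and 216519 to 244982 in mutants of Vangl2 P2, and so did the 3 ciliated and 6 alveolar type I genes (type I 63500 to 76295 in controls and 87951 to 111831 in mutants of Vangl2 P2). The Ror2 P5 sums hold 2 of the 3 club and 5 of the 6 type I genes, and the type I groups of Vangl2 P5 all but touched (56396 to 57681 in controls and 57682 to 79256 in mutants). The 4 neutrophil genes summed above in both Vangl2 tables, with 2678 to 4285 in controls and 8218 to 10846 in mutants of Vangl2 P2 and 3183 to 4349 in controls and 8588 to 22176 in mutants of Vangl2 P5. The 4 macrophage genes also summed above in both, and the 5 endothelial genes below in Vangl2 P5, with 63472 to 70438 in controls and 36165 to 58557 in mutants. The type II sum, most of it Sftpc, overlapped in all 4 tables, but 5 of the 6 type II genes were above every control in Vangl2 P2, where Sftpa1 and Slc34a2 rose (log2 fold change 1.89 and 0.63, limma adjusted p = 0.0329 and 0.0394), and 2, 3 and 1 were in Vangl2 P5, Ror2 P2 and Ror2 P5. All 3 proliferation genes fell in Vangl2 P2 by the limma test, with sums of 9097 to 15268 in controls and 2393 to 5053 in mutants and a median log2 fold change of −1.83. They were lower in every table, with medians of −0.60, −2.09 and −0.91 in Vangl2 P5, Ror2 P2 and Ror2 P5, and 0, 2 and 2 of the 3 were below every control there. Of the erythroid genes, Alas2 fell in Vangl2 P2 (−1.51, limma adjusted p = 0.0326), where the sum was 2674 to 5134 in controls and 1118 to 1640 in mutants, while Hba-a1 was at 0 in every lung of the Vangl2 tables and at most 1.91 in the others. The part of these cells in the coat and adaptor values was not tested.

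Lists of genes of the same route outside the 40 are set beside all genes tested in Vangl2 P2, Vangl2 P5, Ror2 P2 and Ror2 P5. Of all genes limma called 3.59%, 0.563%, 0% and 0.128%. An unadjusted p under 0.05 was reached by 22.5%, 18.8%, 19.3% and 18.4%, and 49.9%, 49.7%, 50.6% and 49.4% were lower. Of 35 other COPI and COPII genes 20, 26, 24 and 27 were lower than in controls. In this list limma called 0 in each table, with 6, 4, 12 and 6 at an unadjusted p under 0.05, and edgeR called 1, Sec16b in Vangl2 P2. Sec16b, which organises ER exit sites, read 63.2, 121 and 90.0 against 32.0, 36.4 and 36.7 there (−1.31, SE 0.29, limma adjusted p = 0.0529). The SNARE Sec22b was separated below at P2 in both mutants (−0.45, SE 0.16, and −0.37, SE 0.11). The SNARE Stx5a (0.21 and 0.27) and the second Sec31 form, Sec31b (0.42 and 0.83), lay above all controls in the same tables.

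Of 29 other clathrin genes, limma and edgeR each called the same 3 in Vangl2 P2, where limma called 3.59% of all genes. Both called 0 in the other tables. There 7, 9 and 4 had an unadjusted p under 0.05 in limma, beside 18.8%, 19.3% and 18.4% of all genes. Hip1r, which links clathrin coats to actin, rose from 1164, 1073 and 1044 to 1571, 1537 and 1654, a log2 fold change of 0.54 (SE 0.09, limma adjusted p = 0.0326). Ap1s3, a relative of Ap1s1, rose from 271, 261 and 282 to 522, 407 and 405, at 0.70 (SE 0.15, limma adjusted p = 0.0436). Amph (amphiphysin), which binds clathrin and curved membrane, fell from 456, 517 and 499 to 176, 241 and 303, at −1.06 (SE 0.20, limma adjusted p = 0.036). In Vangl2 P5, Ror2 P2 and Ror2 P5 these genes kept their sign without passing, with Hip1r at 0.47, 0.45 and 0.38, Ap1s3 at 0.24, 0.56 and 0.07, and Amph at −1.23, −0.60 and −0.47. Gga2, a trans-Golgi adaptor, gave −0.41 (SE 0.10, limma adjusted p = 0.0692) in Vangl2 P2.

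Among 22 other Golgi structure genes limma and edgeR called 0 in each table, and 7, 17, 10 and 15 were lower. At an unadjusted p under 0.05 in limma there were 6, 3, 0 and 3, beside 22.5%, 18.8%, 19.3% and 18.4% of all genes. Glg1, a Golgi membrane glycoprotein, gave −0.55 (SE 0.15) in Vangl2 P5 and −0.37 (SE 0.14) in Ror2 P5. The tether subunit Cog5 gave −0.47 (SE 0.17) and −0.42 (SE 0.12) there, and the golgin Trip11 −0.30 (SE 0.15) and −0.34 (SE 0.09). Another golgin, Golga5, gave 0.31 (SE 0.10) in Vangl2 P2.

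Of 24 genes of the unfolded protein response and ER folding, 14, 18, 15 and 20 were lower, with medians of −0.12, −0.25, −0.10 and −0.14. In this list limma called 0 in each table. At an unadjusted p under 0.05 there were 7, 7, 11 and 1, beside 22.5%, 18.8%, 19.3% and 18.4% of all genes. The edgeR test called 1, Pdia4 in Vangl2 P2. The disulfide isomerase Pdia4 gave −0.43 (SE 0.10, limma adjusted p = 0.0546) there, and in Vangl2 P5 it read 3407, 3405 and 3415 against 2102, 2395 and 1915, at −0.68 (SE 0.13, limma adjusted p = 0.0667). The ER co-chaperone Dnajb9 lay above all controls at P2, at 1033, 1033 and 804 against 1308, 1361 and 1278 in Vangl2 (0.47, SE 0.12) and 903, 842 and 913 against 1201, 1186 and 1291 in Ror2 (0.47, SE 0.08). Herpud1, of ER-associated degradation, gave 0.71 (SE 0.24) in Vangl2 P2 and 0.46 (SE 0.14) in Vangl2 P5. The transcription factor gene Creb3l2 gave −0.60 (SE 0.17) in Vangl2 P5 and −0.45 (SE 0.13) in Ror2 P5.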

How the data were processed

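Left lobes of 24 mouse lungs were extracted with TRIzol and RNeasy and sequenced on Illumina instruments. The submitters' processing notes name mm10 and DESeq2; the aligner, counter and annotation are not given in the sources used here. The authors deposited 4 tables of normalized counts, a signal equal to the reads on a gene scaled by 1 factor per lung. Each table also holds the authors' own comparison (mean, fold change, its error, statistic and p-values), and none of these columns was used. Every value was a whole multiple of a lung's step (100% within 0.02), which gave back whole reads.

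Members were matched by symbol. Both they and the lists were chosen with earlier results of these data known. Because the values are normalized, limma 3.58.1 (R 4.3.3, empirical Bayes with trend) was fitted to log2(normalized count + 1), two-sided, within each table of 6, for genes with a value of at least 1 in at least 3 lungs. P-values were adjusted by Benjamini-Hochberg across the whole table, with a threshold of 0.05. Fold changes are on that scale, which understates those of low genes. Control 1 of Ror2 P5 was set to missing for 8085 genes. Differences between comparisons were fitted over 12 lungs. edgeR 4.0.16 on the recovered reads was an alternative, beside another pseudocount, no filter, TMM scaling, a replicate block, a sex term, all lungs of an age in one fit and each lung left out. The fits were tested on simulated data.

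Same-numbered lungs counted as paired where their deviations from the group means correlated by over 0.1 in every pair, which held in Vangl2 P5 (r = 0.55, 0.54 and 0.29) and in no other table. The main fit was nevertheless unpaired in every table, Vangl2 P5 included, and the replicate block was an alternative. The labels do not say what a number marks, nor that lungs came from separate litters, so p-values measure the spread between these lungs.

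Per-lung values were given for the 3 members with the largest absolute log2 fold change and the 2 with the lowest p in each comparison, and of each other list for up to 4 genes (those called most often, then by p). Copz1, Copb2, Arfgef2, Arf4, Golgb1, Cltc, Ap2m1 and the members given by fold change only were added after their values were seen. Gene positions are from GENCODE on GRCm38 and promoters from RefSeq on GRCm38.p6.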

Additional observations from a re-analysis of the deposited data

Results flagged for a closer look

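Golga2, which encodes the Golgi matrix protein GM130, lay on opposite sides of the controls at the 2 ages of the Vangl2 mutants. At P2 the controls read 2090, 1945 and 2097 and the mutants 2880, 2289 and 2202, all above. At P5 the controls read 2353, 2353 and 2120 and the mutants 2068, 2031 and 2046, all below. The log2 fold change was 0.26 (SE 0.12) at P2 and −0.15 (SE 0.12) at P5. The difference, P5 minus P2, was −0.41 (SE 0.16, 95% interval −0.75 to −0.06, limma unadjusted p = 0.0259, adjusted p = 0.577 over all genes), so it did not pass the adjusted test. Golga2 was 1 of 40 members with an unadjusted p under 0.05 for this difference, beside 8.45% of all genes. In the Ror2 mutants its log2 fold change was 0.14 at P2 and −0.05 at P5.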

How the results depend on the processing

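Of 28 results (calls and group medians), 18 stayed under every alternative run within the spread between lungs or on their side of the threshold, among them the Arf median of Vangl2 P5, whose sign nevertheless turned (−0.14 to 0.063 with lungs left out). The calls rose from 0 to 2 of 40 members in Vangl2 P5 with the replicate block (Sec23a and Gbf1), beside 1558 of 17410 genes. They rose to 1 with all 12 lungs of the age in one fit (Gbf1, limma adjusted p = 0.0247), beside 1006 of 16887 genes. With each lung left out in turn they ranged from 0 to 6 in Vangl2 P2 and from 0 to 2 in Ror2 P2. The highest of these stood beside 2333 of 17146 and 859 of 17409 genes. Group medians moved by more than the spread between lungs only when lungs were left out, apart from Golgi in Ror2 P5 with the replicate block (−0.0098). With lungs left out, Vangl2 P2 medians ran from −0.10 to 0.026 for Arf, 0.0065 to 0.15 for Golgi and −0.053 to 0.038 for clathrin. Ror2 P2 medians ran from −0.078 to −0.017 for Arf, −0.084 to −0.036 for Golgi and −0.14 to −0.065 for clathrin, and Ror2 P5 Golgi from −0.084 to 0.0036. The block called 0 members in the other 3 comparisons and changed no other call, and 795, 1 and 1 genes in all in Vangl2 P2, Ror2 P2 and Ror2 P5. Of 2120 values of single members under the alternatives, 2012 kept their direction. With control 1 of Ror2 P5 kept as deposited, the 13 members on its missing chromosomes gave log2 fold changes from 2.77 to 4.02, and 12 turned direction. A sex term called 0 members in Vangl2 P5 and 22 genes, and it could not be fitted in Ror2 P5, where control 1 lacks the X chromosome. The 3 lungs a group limit every value: intervals of a member's log2 fold change reached from 0.14 to 1.14 to either side.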
